A study of Mus musculus with 32 samples.

Results

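The 2 cultures named Ex5 and Ex4 were compared over the first hour in which each was sampled. The 5 earliest Ex5 libraries, frozen at 165, 180, 195, 210 and 225 min, were set against the 5 earliest Ex4 libraries, frozen at 155, 170, 185, 200 and 215 min. These are 10 of the 32 libraries of the series; the other 22, 11 from each culture, came from later times and were used only to ask whether an early difference lasted. The rule that picks these libraries uses experiment and time point alone, with no measured value. Both cultures were mouse epiblast stem cells (line AES0204, derived from the pluripotent epiblast) carrying a luciferase reporter of Hes7, and both went through the same steps. They were kept with Activin A, bFGF and the Wnt inhibitor IWR-1-endo, then seeded overnight with Y27632 and without that inhibitor. PSM fate was induced with 10 µM CHIR99021, an inhibitor of the kinase GSK3 that turns on Wnt signalling, with 20 ng/ml bFGF, 10 µM SB431542 against activin and TGF-β receptors and 250 nM LDN193189 against BMP receptors. After 30 h the CHIR99021 dose was lowered to 1 µM with the other additions kept. Each library is a separate dish of that single line, frozen at its time. The labels do not say from which step the minutes are counted, nor what differed between Ex5 and Ex4. Each culture was run once, so the p-values below measure the spread between dishes of 1 run and not between repeated cultures.

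Presomitic mesoderm (PSM) is the unsegmented tissue at the tail end of the embryo from which somites are cut off one after another. Its timing comes from the segmentation clock, in which the repressor Hes7 shuts off its own gene and Lfng, a Notch-modifying enzyme, in a repeating cycle. Wnt and FGF signals hold the cells immature, Tbx6 and Msgn1 drive them toward mesoderm, and Nkx1-2 and Sox2 mark the progenitors from which both spinal cord and PSM arise.

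Depth was similar in the 2 groups, 18661970 to 24802326 counts per library in Ex5 (median 24590083) and 23189964 to 29528175 counts per library in Ex4 (median 24402747). Each library held 15267 to 15461 detected genes in Ex5 and 15331 to 15731 in Ex4. The PSM label fitted the markers: summed over T, Tbx6, Msgn1, Hes7, Dll1, Cdx2 and Rspo3, the level was 2986 to 3522 CPM (read counts scaled to library size) in Ex5 and 2417 to 2780 CPM in Ex4. Markers of somites (6 genes), endoderm (4) and lateral or vascular mesoderm (5) each summed to less than 5 CPM in every library, and 4 neural markers to 15.7 to 20.2 CPM in Ex5 and 17.6 to 20.8 CPM in Ex4. Longer lists summed higher. The neural list (15 genes) gave 759 to 828 CPM in Ex5 and 629 to 705 CPM in Ex4. Its member Nes averaged 494 CPM in Ex5 and 392 CPM in Ex4. Of 11 tested neural genes 3 were higher in Ex5, 6 lower and 2 not called, against 20.5% and 19.4% over all genes. The anterior PSM and somite list (23) gave 315 to 330 and 349 to 407 CPM, and the endoderm list (17) 107 to 126 and 114 to 126 CPM. The 6 epiblast markers summed to 132 to 149 CPM in Ex5 and 177 to 215 CPM in Ex4, with Nanog, Fgf5 and Otx2 under 1 CPM throughout. The 6 fibroblast markers summed to 63.3 to 72.2 CPM in Ex5 and 48.8 to 62.2 CPM in Ex4, mostly Col1a2, with Dcn and Lum at or near 0. In such bulk samples fewer cells of a type and less RNA per cell cannot be told apart.

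The sequences below belong to genes that carry the largest or the broadest differences, and are the 300 bases around the annotated start (250 before, 50 after) from RefSeq on GRCm38.p6. Metallothionein genes are switched on by the zinc sensor MTF1 through metal response elements, whose core TGCACNC or TGCGCNC is in capitals, on either strand, in Mt1 (chr8:94178839-94179138, plus strand) and Mt2 (chr8:94172368-94172667, plus strand).
Mt1: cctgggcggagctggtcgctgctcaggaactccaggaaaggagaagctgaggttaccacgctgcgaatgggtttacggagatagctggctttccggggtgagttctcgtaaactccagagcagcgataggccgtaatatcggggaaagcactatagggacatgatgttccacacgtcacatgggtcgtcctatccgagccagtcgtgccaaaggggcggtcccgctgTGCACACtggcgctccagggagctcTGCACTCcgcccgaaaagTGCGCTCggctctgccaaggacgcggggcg
Mt2: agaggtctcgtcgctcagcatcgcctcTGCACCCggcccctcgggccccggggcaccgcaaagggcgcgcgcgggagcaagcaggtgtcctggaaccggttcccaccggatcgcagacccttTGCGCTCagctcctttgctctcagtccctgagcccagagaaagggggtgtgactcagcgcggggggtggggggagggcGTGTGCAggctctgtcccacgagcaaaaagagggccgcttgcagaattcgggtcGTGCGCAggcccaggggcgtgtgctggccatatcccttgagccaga
Mt1 held 3 such cores and Mt2 held 4, and 36.8% of the 12084 windows of tested genes held at least 1 and 0.902% at least 4. Sterol-controlled genes can carry sites of the factor SREBP, and the core TCACNCCAC is in capitals in Hmgcs1 (chr13:119690101-119690400, plus strand), an early enzyme of cholesterol synthesis.
Hmgcs1: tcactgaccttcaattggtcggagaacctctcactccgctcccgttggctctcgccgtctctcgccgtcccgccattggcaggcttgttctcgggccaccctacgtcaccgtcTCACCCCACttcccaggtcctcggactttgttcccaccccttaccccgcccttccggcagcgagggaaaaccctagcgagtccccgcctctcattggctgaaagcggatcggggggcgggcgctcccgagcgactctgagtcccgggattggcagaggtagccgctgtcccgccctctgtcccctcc
That core was in 1.19% of all those windows. Counted by gene and not by window, it was in 1 of the 20 cholesterol and fatty acid genes that had a window. Genes induced by low oxygen can carry the core ACGTG or GCGTG, in capitals in Slc16a3 (chr11:120948817-120949116, plus strand), a lactate exporter.
Slc16a3: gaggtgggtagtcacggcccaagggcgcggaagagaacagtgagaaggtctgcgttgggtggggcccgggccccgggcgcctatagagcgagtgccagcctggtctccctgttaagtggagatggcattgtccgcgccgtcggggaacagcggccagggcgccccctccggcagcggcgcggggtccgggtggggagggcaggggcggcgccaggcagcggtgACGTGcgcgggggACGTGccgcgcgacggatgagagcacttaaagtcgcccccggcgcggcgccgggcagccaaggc
It was in 20 of the 22 glycolysis genes that had a window, counting a gene if any of its windows matched. The share of single windows was 63.2% over tested genes, which is not the same unit. A match describes the letters only.

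The first question was how far the cultures differed in level once the 10 min offset between the windows was taken into account. A line in time shared by both cultures was fitted to each gene, and the cultures were compared at the same minute (edgeR's quasi-likelihood test, Benjamini-Hochberg adjusted over 11896 genes, called at 0.05). In Ex5, 2439 genes were higher (20.5% of the genes tested) and 2307 were lower (19.4%), 4746 in all (39.9%). Most differences were small: the median size over all genes was 0.12 on the log2 scale, 679 called genes (5.71%) differed at least 1.5-fold and 169 (1.42%) at least 2-fold. At 1.5-fold 399 were higher (3.35%) and 280 lower (2.35%), and at 2-fold 96 were higher (0.807%) and 73 lower (0.614%). The 5 Ex5 values lay wholly above the 5 Ex4 values for 1388 genes (11.7%) and wholly below for 1288 (10.8%). In a principal component analysis of the 10 libraries, the first component held 56.4% of the variance, with all Ex5 libraries between 12.1 and 18 and all Ex4 libraries between -15.4 and -12.5.

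**Figure D1:**
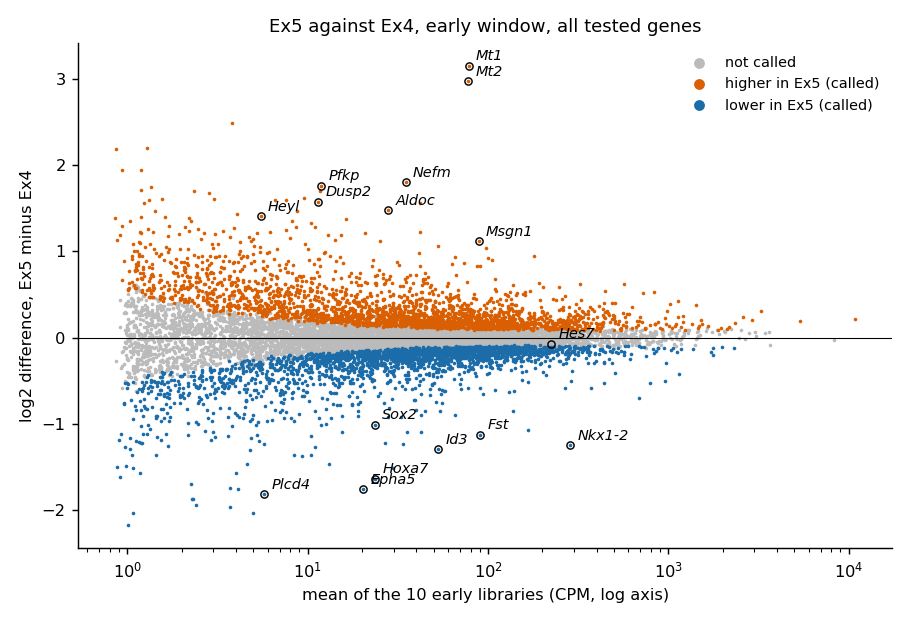
Log2 difference Ex5 minus Ex4 at the same minute (y) against the mean of the 10 early libraries in CPM (x, log axis), 1 point per tested gene. Orange points are the 2439 genes called higher in Ex5, blue points the 2307 called lower and grey points those not called; Mt1 and Mt2 stand apart at the top.

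The metallothioneins Mt1 and Mt2, small proteins that bind zinc and copper, had the largest differences in favour of Ex5 among named genes at 5 CPM or more with groups apart. Mt1 (chr8:94179082-94180327, plus strand, mm10) was at 184, 134, 134, 130 and 117 CPM in Ex5 from the earliest to the latest dish, against 19.6, 15.5, 15.1, 14.9 and 17.1 CPM in Ex4. Every Ex5 value was several times every Ex4 value, 8.91-fold at the same minute (log2 difference 3.16 ± 0.07 SE, adjusted p = 4.45e-16). Mt2, its neighbour on chromosome 8, was at 178, 138, 135, 120 and 113 CPM in Ex5, against 21.1, 15.1, 18.3, 17.4 and 18.9 CPM in Ex4 (log2 difference 2.97 ± 0.08, adjusted p = 2.45e-15). The pair moved alike, with the highest value of each in the earliest Ex5 dish. Of the 6 tested genes of the metallothionein and zinc list, 3 were higher and 1 lower, against 20.5% higher and 19.4% lower over all genes. The zinc importer Slc39a6 was higher (log2 0.19, adjusted p = 0.000608), and the zinc importer Slc39a10 was lower (log2 -0.60, adjusted p = 2.44e-06). The zinc exporter Slc30a1 averaged 24.3 ± 7.50 CPM in Ex5 and 21.3 ± 3.24 CPM in Ex4 (SD, n = 5 each), which did not pass (adjusted p = 0.0882). It did pass without the latest Ex4 dish (adjusted p = 0.00172), with a slope per culture (0.0335) and with all 32 libraries in 1 fit (0.0363).

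Among genes of glycolysis and lactate export, more were higher than lower. Pfkp, an isoform of phosphofructokinase, was at 16.2, 18.6, 18.0, 20.2 and 18.7 CPM in Ex5, against 5.46, 7.14, 5.75, 5.34 and 3.71 CPM in Ex4 (log2 difference 1.76 ± 0.11, adjusted p = 7.14e-10). The aldolase Aldoc was at 41.0, 40.5, 39.9, 42.0 and 41.5 CPM in Ex5, against 16.5, 15.5, 14.1, 14.3 and 14.0 CPM in Ex4 (log2 difference 1.48 ± 0.05, adjusted p = 2.35e-13). The lactate exporter Slc16a3, whose window is printed above, was at 59.5, 45.7, 48.8, 81.7 and 85.8 CPM in Ex5, against 17.3, 19.2, 19.3, 21.1 and 23.7 CPM in Ex4 (log2 difference 1.56 ± 0.11). For all 3 genes the groups were fully apart. Of 23 tested members of the glycolysis list, 14 were higher, 3 lower and 6 not called, against 20.5% higher and 19.4% lower over all genes. The median log2 difference was 0.28, against -0.000526 over all genes. Pgk1 (684 ± 22 CPM in Ex5 and 446 ± 17.6 CPM in Ex4, SD, n = 5 each), Pfkl, Aldoa and Ldha were among the higher members, while Gapdh (log2 0.02), Eno1 (-0.02) and Pkm (0.02) were not called. The 3 lower members were the glucose transporters Slc2a1 (log2 -0.70, adjusted p = 3.98e-09) and Slc2a3 (-0.29) and the lactate dehydrogenase subunit Ldhb (-0.12).

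Hypoxia-inducible genes outside glycolysis were mostly higher as well, 14 of 21 higher, 1 lower and 6 not called. This stands against 20.5% higher and 19.4% lower over all genes, and the median log2 difference was 0.26. The growth factor Vegfa was at 40.8, 40.0, 36.2, 45.2 and 42.4 CPM in Ex5, against 17.8, 21.6, 22.9, 22.2 and 24.1 CPM in Ex4 (log2 difference 0.88 ± 0.06, adjusted p = 3.36e-09). The adenylate kinase Ak4 (log2 0.85), the mitophagy receptor Bnip3 (0.70) and the oxygen sensor Egln3 (0.54) were also higher with groups apart, and the collagen hydroxylase Plod2 was the lower member (log2 -0.15, adjusted p = 0.0266).

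Cholesterol and fatty acid synthesis was raised across nearly its whole list by small steps. Of 31 members, 28 were higher, 0 lower and 3 not called, against 20.5% higher and 19.4% lower over all genes, with a median log2 difference of 0.23. In 22 of them the Ex5 values lay wholly above, against 11.7% of all genes. Insig1, a sterol-responsive brake on the pathway, was at 249, 242, 244, 242 and 228 CPM in Ex5, against 170, 152, 163, 161 and 165 CPM in Ex4 (log2 difference 0.59 ± 0.04, adjusted p = 4.41e-10). Hmgcs1 was at 828, 829, 885, 879 and 856 CPM in Ex5, against 620, 569, 582, 601 and 618 CPM in Ex4 (log2 difference 0.51 ± 0.04, adjusted p = 1.75e-09). Lss (log2 0.44) and the desaturase Scd2 (0.31) were also higher, with groups apart in each. Mvk (log2 -0.07), Idi1 (0.08) and Fdps (0.18, adjusted p = 0.0807) did not pass. Fdps did pass without the Ex4 dish at 155 min (0.21, adjusted p = 0.0429), at matched minutes, with time counted from the Hes7 peak and with all 32 libraries (adjusted p = 0.02 to 0.0448), and with a replicate block (0.0293). After a correction for GC content Mvk was lower (-0.11, adjusted p = 0.0187).

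In the list of amino acid transport, tRNA charging and integrated stress response genes, more were higher than lower, 21 of 33 higher, 1 lower and 11 not called. The shares over all genes were 20.5% higher and 19.4% lower, and the list's median log2 difference was 0.25. The arginine transporter Slc7a1 was at 87.4, 78.0, 72.1, 59.8 and 54.2 CPM in Ex5, against 38.1, 33.8, 35.5, 31.9 and 36.0 CPM in Ex4 (log2 difference 1.06 ± 0.07, adjusted p = 7.70e-10). The related Slc7a3 (log2 1.16), the large neutral amino acid transporter Slc7a5 (0.54), asparagine synthetase Asns (0.48) and the cysteine tRNA ligase Cars (0.45) were higher, with groups apart in each. Atf4, the transcription factor at the centre of the integrated stress response, did not differ beyond its spread in transcript level (log2 -0.01 ± 0.03, adjusted p = 0.87), and Sesn2 was lower (log2 -0.19). Other stress response members, Ddit3 (log2 -0.21, adjusted p = 0.182), Chac1 (0.27, adjusted p = 0.18) and Cebpg (0.04, adjusted p = 0.442), were not called, while Atf5 was higher (0.31, adjusted p = 0.00106).

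**Figure D2:**
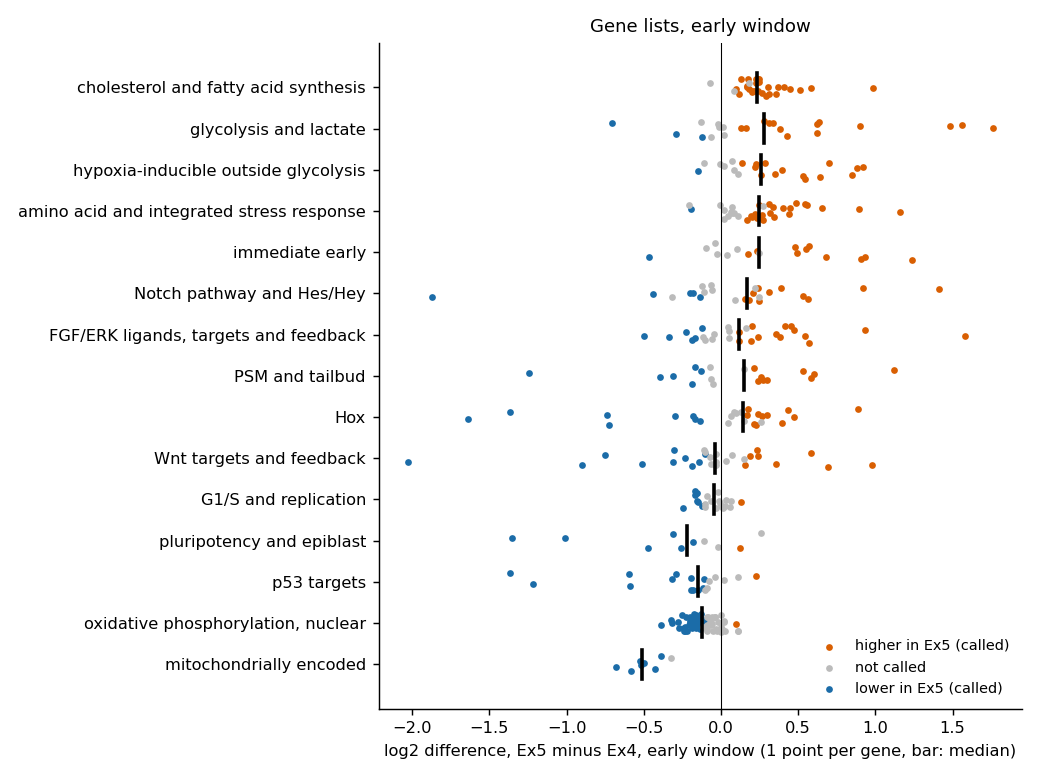
Log2 difference Ex5 minus Ex4 in the early window for the tested members of 15 gene lists (1 point per gene, black bar the median; orange called higher in Ex5, blue called lower, grey not called). The cholesterol list has 28 of 31 members called higher, the nuclear oxidative phosphorylation list 39 of 70 called lower, against 20.5% higher and 19.4% lower over all genes.

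The p53 and oxidative phosphorylation lists were lower in Ex5. Of 19 p53 target genes, 12 were lower, 1 higher and 6 not called, against 19.4% lower and 20.5% higher over all genes, with a median log2 difference of -0.15. Pmaip1, a pro-apoptotic protein, was at 13.5, 17.0, 18.7, 16.3 and 16.6 CPM in Ex5, against 37.4, 32.1, 38.1, 40.0 and 40.0 CPM in Ex4 (log2 difference -1.22 ± 0.07, adjusted p = 1.83e-10). Perp (log2 -1.37), Plk2 (-0.60) and Trp53inp1 (-0.59) were lower with groups apart and Mdm2, the main inhibitor of p53, was lower by a small step (-0.18). The higher member was the pro-apoptotic Bbc3 (0.23), whose call was lost after a correction for GC content (0.04, adjusted p = 0.431).

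Subunits of oxidative phosphorylation encoded in the nucleus were lower in 39 of 70 genes, higher in 1 and not called in 30. That compares with 19.4% lower and 20.5% higher over all genes, and the median log2 difference was -0.12. The complex I subunits Ndufb6 (log2 -0.32) and Ndufa12 (-0.28) and the complex III subunit Uqcrq (-0.32) had groups apart. Of 8 tested mitochondrially encoded genes 7 were lower, with a median of -0.51. mt-Nd2 was at 273, 352, 314, 255 and 264 CPM in Ex5, against 506, 492, 379, 394 and 475 CPM in Ex4 (log2 difference -0.58 ± 0.08, adjusted p = 1.12e-05). The call for mt-Co1 (log2 -0.43) was lost without the latest Ex4 dish (-0.30, adjusted p = 0.0514). Over all mitochondrially encoded genes the share of counts was 0.329% ± 0.0547 in Ex5 and 0.483% ± 0.0781 in Ex4 (SD, n = 5 each, exact two-sided permutation test, p = 0.0159). Nuclear copies of these genes can share their reads, and the part of this share in the other differences was not tested.

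Genes of the PSM itself split. Msgn1, a driver of PSM fate, was at 131, 125, 121, 118 and 106 CPM in Ex5, against 65.7, 59.6, 63.3, 52.3 and 48.4 CPM in Ex4 (log2 difference 1.12 ± 0.04, adjusted p = 1.18e-12). Rspo3, which potentiates Wnt signals, was at 284, 298, 300.4, 304 and 301 CPM in Ex5, against 206, 182, 191, 198 and 210 CPM in Ex4 (log2 difference 0.58 ± 0.04). Tbx6 was higher by a smaller step (0.26 ± 0.05, adjusted p = 0.000359), and T, the marker of early mesoderm and tailbud, averaged 634 ± 18.2 CPM in Ex5 and 660 ± 39.7 CPM in Ex4 with no call (log2 -0.05, adjusted p = 0.313). Nkx1-2 was at 132, 161, 191, 192 and 191 CPM in Ex5, against 368, 419, 410, 417 and 375 CPM in Ex4 (log2 difference -1.25 ± 0.07, adjusted p = 1.21e-10) and every Ex4 dish was well above every Ex5 dish. In all, 9 of 19 tested PSM and tailbud genes were higher, 6 lower and 4 not called, against 20.5% higher and 19.4% lower over all genes (median log2 difference 0.15).

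Sox2, a gene of epiblast and progenitors, was at 15.8, 15.6, 16.8, 15.9 and 12.6 CPM in Ex5, against 33.7, 33.8, 31.2, 33.6 and 27.3 CPM in Ex4 (log2 difference -1.01 ± 0.07, adjusted p = 1.00e-09). The pluripotency factor Pou5f1 (log2 -0.48), L1td1 (-1.36) and E-cadherin Cdh1 (-0.31) were lower with groups apart. Of 10 tested pluripotency and epiblast genes, 6 were lower, 1 higher (Epcam, log2 0.12) and 3 not called, against 19.4% lower and 20.5% higher over all genes. Their median was -0.22, and the other 17 of that list were too low to be tested. The activin antagonist Fst was at 58.0, 63.6, 63.8, 46.7 and 38.0 CPM in Ex5, against 143, 147, 129, 119 and 97.3 CPM in Ex4 (log2 difference -1.13 ± 0.07, adjusted p = 5.89e-10). It fell with time in both cultures and never overlapped.

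The Hox genes, which are switched on in turn along their clusters and give position along the body axis, also split. Of 26 tested genes 11 were higher, 8 lower and 7 not called, against 20.5% higher and 19.4% lower over all genes. Another 13 were too low to be tested. Hoxa7 was at 9.85, 12.2, 11.5, 12.2 and 12.8 CPM in Ex5, against 31.7, 36.9, 36.7, 36.9 and 36.3 CPM in Ex4 (log2 difference -1.64 ± 0.06, adjusted p = 3.22e-13) with the groups fully apart. Hoxc8 (-0.74), Hoxc9 (-0.72) and Hoxc6 (-0.30) were lower too. Hoxb2 (0.43), Hoxa2 (0.47) and Hoxb1 (0.30), from the early end of their clusters, were higher, and so was Hoxd9 (0.88) from late in its cluster.

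**Figure D3:**
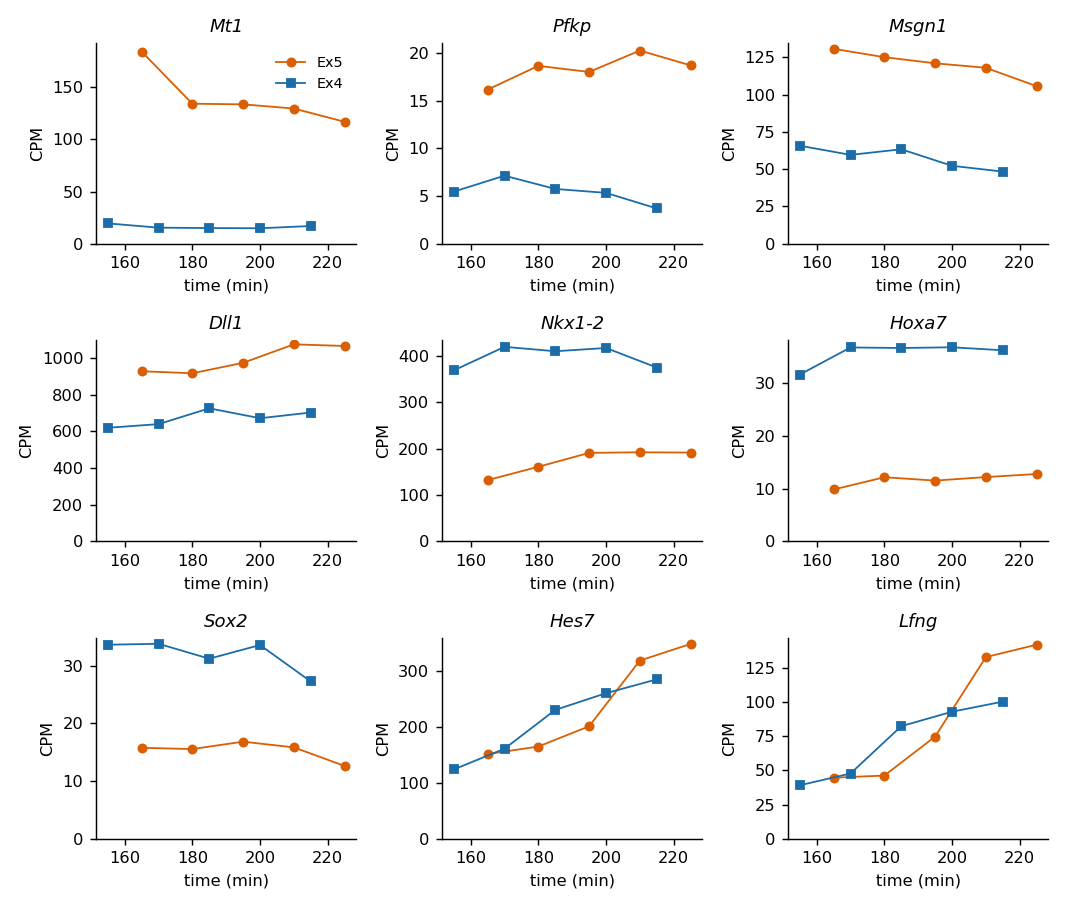
CPM of 9 genes in each early library against time in min (circles Ex5, squares Ex4; 1 dish per point). Mt1, Pfkp, Msgn1 and Dll1 are higher in every Ex5 dish, Nkx1-2, Hoxa7 and Sox2 lower in every Ex5 dish, and Hes7 and Lfng overlap.

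Among Notch genes, 11 of 24 were higher, 5 lower and 8 not called, against 20.5% higher and 19.4% lower over all genes. The ligand Dll1 was at 928, 917, 974, 1075 and 1066 CPM in Ex5, against 620, 640, 726, 672 and 703 CPM in Ex4 (log2 difference 0.53 ± 0.04, adjusted p = 4.16e-09). The targets Heyl (log2 1.41) and Hey2 (0.92) were higher. With time counted from each culture's own Hes7 peak, the difference of Heyl was 0.87. The lowest member was Hes3, at a low level (0.956 CPM in Ex5 and 3.65 CPM in Ex4, log2 -1.87 ± 0.20, adjusted p = 6.26e-07). Mfng (-0.44), Rfng (-0.20), Notch3 (-0.18) and Pofut1 (-0.13) were the other lower members. The repressors Hes1 and Hes5 were not called: Hes1 was at 17.7 ± 6.54 CPM in Ex5 and 20.0 ± 5.33 CPM in Ex4 (log2 -0.32, adjusted p = 0.136), and Hes5 at 25.8 ± 4.03 CPM in Ex5 and 21.5 ± 3.68 CPM in Ex4 (log2 0.25, adjusted p = 0.0843). Hes1 passed without the Ex4 dish at 215 min (log2 -0.57, adjusted p = 0.00549) or the Ex5 dish at 210 min (-0.43, adjusted p = 0.0398). Hes5 passed without the Ex4 dish at 185 min (log2 0.33, adjusted p = 0.0178) or the Ex5 dish at 180 min (0.32, adjusted p = 0.0347). Hes5 also passed with a slope per culture (0.24, adjusted p = 0.048) and with time counted from the Hes7 peak (0.30, adjusted p = 0.0393).

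Hes7 (chr11:69120404-69124055, plus strand) climbed in both cultures. It was at 152, 165, 201, 319 and 349 CPM in Ex5, against 124, 161, 231, 260 and 285 CPM in Ex4. At the same minute the level did not differ beyond its error (log2 -0.07 ± 0.07, adjusted p = 0.43), and Lfng, at 44.7, 46.3, 74.8, 133 and 142 CPM in Ex5 against 39.2, 47.8, 82.4, 93.0 and 100.4 CPM in Ex4, gave log2 -0.06 ± 0.10 (adjusted p = 0.69). A cosine fitted to Hes7 over all 32 libraries had a period of 135 min and its first peak at 237 ± 2.35 min in Ex5 and 213 ± 2.67 min in Ex4 (SE), 24.6 min apart. Counted from those peaks instead of the labelled minutes, the difference was log2 0.46 for Hes7 (adjusted p = 2.32e-05) and 0.64 for Lfng (adjusted p = 7.64e-05). The peaks were themselves fitted to Hes7 values that include the early libraries. The test of Hes7 on that time scale is therefore circular, and no conclusion is drawn from its p-value. The estimates for both genes depend on how time is counted. After a correction for GC content Hes7 was lower (-0.13, adjusted p = 0.0194). The luciferase transcript of the reporter was at 18.6, 17.1, 19.3, 24.1 and 27.8 CPM in Ex5, against 12.3, 11.7, 15.6, 18.7 and 16.3 CPM in Ex4 (LUCIFERASE, log2 difference 0.41 ± 0.08, adjusted p = 0.000425), a call that all 32 libraries in 1 fit did not keep (adjusted p = 0.0525).

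FGF targets and early response genes were more often higher. Of 28 FGF and ERK genes, 14 were higher, 6 lower and 8 not called, against 20.5% higher and 19.4% lower over all genes. Among 17 immediate early genes 10 were higher, 1 lower (Cyr61, log2 -0.47) and 6 not called. Dusp2, a phosphatase that switches off ERK, was at 20.2, 16.8, 16.1, 16.2 and 15.9 CPM in Ex5, against 6.03, 4.97, 6.47, 6.32 and 5.42 CPM in Ex4 (log2 difference 1.58 ± 0.08, adjusted p = 7.07e-11). Egr1, a transcription factor induced by ERK, was at 80.6, 90.3, 94.0, 81.3 and 80.4 CPM in Ex5, against 45.5, 46.6, 49.1, 41.8 and 43.5 CPM in Ex4 (log2 difference 0.93 ± 0.05, adjusted p = 2.04e-10). Spry4, a feedback inhibitor, was higher (0.36) and the FGF target Etv4 lower (-0.50, adjusted p = 4.15e-08), and Fgf8 was not called (0.05, adjusted p = 0.43).

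Of 29 tested Wnt genes, 8 were higher, 10 lower and 11 not called (median log2 difference -0.04), against 20.5% higher and 19.4% lower over all genes. Lef1, a mediator of Wnt signals and also a target, was higher (711 ± 38.0 CPM in Ex5 and 553 ± 22.6 CPM in Ex4, SD, n = 5 each, log2 0.35, adjusted p = 7.71e-07). The ligand Wnt8a (40.5 ± 2.02 CPM in Ex5 and 70.2 ± 8.10 CPM in Ex4, log2 -0.75, adjusted p = 1.25e-08) was lower.

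Nefm, a neurofilament subunit, averaged 54.1 ± 3.97 CPM in Ex5 and 15.8 ± 1.51 CPM in Ex4 (SD, n = 5 each, log2 1.80 ± 0.06, adjusted p = 1.53e-13). Dlgap3 (log2 1.70), Adssl1 (1.62), Cpne5 (1.60), Rtn4rl2 (1.59) and Serpinb6b (1.47) complete the 12 highest. At the low end, the phospholipase Plcd4 averaged 2.52 ± 0.577 CPM in Ex5 and 8.92 ± 1.10 CPM in Ex4 (log2 -1.81 ± 0.13, adjusted p = 4.86e-09), and the ephrin receptor Epha5 9.83 ± 1.74 CPM in Ex5 and 30.9 ± 6.31 CPM in Ex4 (log2 -1.76 ± 0.06). The guidance ligand Sema3e (-1.51), the retinoid receptor Rxrg (-1.46), Ano3 (-1.36), the BMP target Id3 (-1.29), Gap43 (-1.27) and Ptn (-1.24) were the others of the 12 lowest, which also hold Hoxa7, Perp, L1td1 and Nkx1-2.

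The second question was how both cultures changed over this hour. A slope shared by the cultures was called for 1072 genes (9.01%), 583 rising (4.9%) and 489 falling (4.11%). Lfng rose by 1.71 ± 0.14 on the log2 scale per hour (adjusted p = 1.33e-06) and Hes7 by 1.29 ± 0.09 (adjusted p = 1.81e-07). Per1, a circadian clock gene next to Hes7 on chromosome 11, rose by 1.10 ± 0.09, and Irx3 (1.00), Otx1 (1.00), Phox2a (0.80) and the ERK phosphatase Dusp4 (0.77) rose too. Hes1 had a slope of 0.81, whose call (adjusted p = 0.0376) was lost without the Ex5 dish at 165, 180, 210 or 225 min or the Ex4 dish at 155 or 200 min (adjusted p = 0.0622 to 0.181). Dkk1, a secreted Wnt inhibitor, was at 12.3, 9.93, 7.11, 4.30 and 3.01 CPM in Ex5, against 7.43, 5.24, 3.62, 3.20 and 2.97 CPM in Ex4, a slope of -1.76 ± 0.15 per hour (adjusted p = 1.79e-06). Its level difference at the same minute (log2 0.98) was not called with time counted from the Hes7 peak (0.25, adjusted p = 0.0876). Heyl fell by 1.32 per hour, to 4.48 CPM in the last Ex5 dish and 2.85 CPM in the last Ex4 dish, followed by Plekhg6 (slope -0.97), the lysosomal transporter Slc46a3 (-0.92), P-cadherin Cdh3 (-0.81) and Nxpe4 (-0.80). In Ex4 alone several of these slopes kept their sign but were not called (adjusted p = 0.159 to 0.342). They were Otx1 (0.86), Phox2a (0.57), Heyl (-0.86), Plekhg6 (-0.76), Slc46a3 (-0.51), Cdh3 (-0.58) and Nxpe4 (-0.69). The call for Nxpe4 was lost without the Ex5 dish at 165 min (adjusted p = 0.055). The falling slope of Mt1 (-0.43, adjusted p = 0.0117) was lost without that dish (adjusted p = 0.146) or the Ex5 dish at 225 min (0.0976), and that of Mt2 (-0.42) without those dishes (0.196 and 0.154) or the Ex4 dish at 155 min (0.0646). The Mt1 slope was -0.56 in Ex5 alone and -0.20 in Ex4 alone (adjusted p = 0.669). The Mt2 slope was -0.62 in Ex5 alone and -0.08 in Ex4 alone (adjusted p = 0.895). Of 24 Notch genes 10 rose and 3 fell, and of 21 genes of protein folding stress 8 rose and 0 fell.

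**Figure D4:**
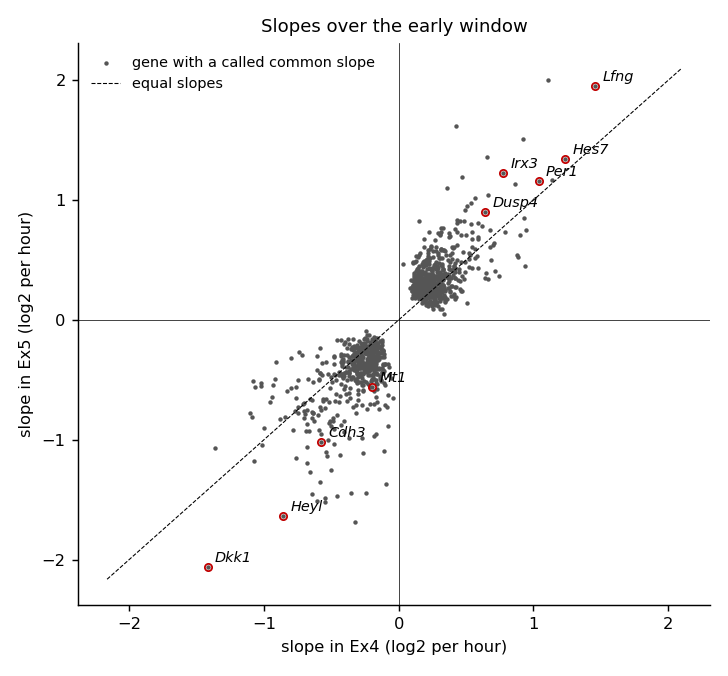
Slope over the early window in Ex5 (y) against Ex4 (x), in log2 per hour, for the 1072 genes with a called common slope (1 point per gene; dashed line equal slopes). Lfng, Hes7 and Per1 rise and Dkk1 and Heyl fall in both cultures, though the Heyl slope was not called in Ex4 alone.

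The number of called slopes hung on single dishes. It was 434 without the Ex4 dish at 155 min, 665 without that at 200 min and 1933 without that at 215 min. It was 626 without the Ex5 dish at 180 min, 604 without that at 210 min and 231 without that at 225 min. Correcting for GC content gave 1723 calls, and scaling by library totals alone turned the share of rising genes to 43.9%, against 54.4%.

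Whether the cultures changed at different rates was tested by the interaction of time with culture. No gene passed (0 of 11896, edgeR), with 618 at an unadjusted p under 0.05, while DESeq2 called 2 and limma-voom 0. In simulated counts this test recovered 3.85% of slope differences of 1.2-fold per hour, 43.9% of 1.5-fold and 78% of 2-fold. The count of 0 therefore does not show equal rates. The smallest p belonged to Nptx1, a secreted synaptic protein, at 14.8, 10.3, 9.26, 7.50 and 5.25 CPM in Ex5, against 9.96, 11.1, 8.88, 9.99 and 9.69 CPM in Ex4 (difference of slopes -1.28 per hour on the log2 scale, adjusted p = 0.183). Slc39a10 was at 65.3, 79.2, 85.3, 108 and 115 CPM in Ex5, against 129, 123, 120, 132 and 142 CPM in Ex4 (difference 0.67, adjusted p = 0.183). These 2 genes were the ones called by DESeq2 (adjusted p = 0.0186 and 0.0097). In both, the Ex5 dishes ran steadily in 1 direction while the Ex4 dishes changed little. Card10 (-1.16), Sema3f (-0.85) and Slc7a1 (-0.61) were among the next and did not pass.

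The last question was whether the early differences lasted. Of the 4746 genes called early, 3009 (63.4%) were called with the same sign in the 22 later libraries and 158 (3.33%) with the opposite sign. The share of all tested genes called in the later libraries was not counted, so 63.4% has no such share to stand against. The change of the difference from early to later, tested over all 32 libraries, was called for 1823 of 12124 genes (15%), 1047 with a more positive difference early (8.64%) and 776 with a more negative one (6.4%). Of the genes called early, 1249 (26.3%) also changed, against 15% of all genes tested for a change. Among those 1249, the later difference was the smaller one for 1135 (90.9%), a share that the choice of genes called early favours. No change was called for Mt1 (log2 3.15 early and 3.44 later, adjusted p of the change 0.0824), Hoxa7 (-1.64 early and -1.51 later, adjusted p = 0.162) and Nkx1-2 (-1.25 early and -1.12 later, adjusted p = 0.186). For Mt1 the change was called without the earliest Ex5 dish (adjusted p = 0.0242). It was also called with time points 12 to 16 as the later window (change -0.41, adjusted p = 0.0171), so the lack of a call depends on the libraries used.

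Msgn1 had the larger gap early, 1.11 early and 0.69 later (change 0.42 ± 0.09, adjusted p = 0.00167). Heyl had 1.40 early and 0.29 later (change 1.11, adjusted p = 1.53e-05), Slc46a3 1.18 early and 0.25 later (change 0.93) and Slc7a1 1.06 early and 0.38 later (change 0.68). The Wnt ligand Wnt6 was higher early (0.63) and lower later (-0.29, adjusted p of the change 6.60e-06). Nptx1 had no called difference early (0.00) and was lower in the later Ex5 libraries (-1.33, adjusted p of the change 3.57e-08), as was the extracellular matrix protein Frem2 (-0.04 early, -0.98 later). In the other direction, Slc39a10 was lower early (-0.61) and level with Ex4 later (-0.01, adjusted p of the change 3.56e-06), and so was the lipase Lpl (-0.70 early, 0.02 later). Cntln turned from lower early (-0.34) to higher later (0.40, adjusted p of the change 5.33e-05). The change for Dkk1 (1.201, adjusted p = 0.0022) was not called when the slopes in time were left out (0.95, adjusted p = 0.176). Leaving out the Ex5 dish at 180 min gave 1175 such genes and leaving out the slopes 841, and after a GC correction 45.3% of the called changes were positive, against 57.4%.

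**Figure D5:**
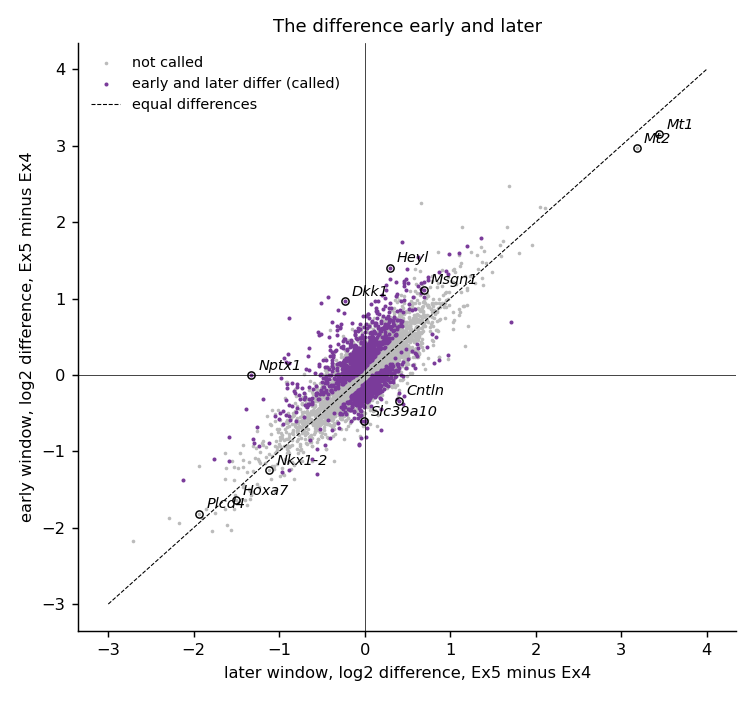
Log2 difference Ex5 minus Ex4 in the early window (y) against that in the later libraries (x), from 1 fit to all 32 libraries, 1 point per gene. Purple points are the 1823 genes whose difference changed; Mt1, Hoxa7 and Nkx1-2 lie near the dashed line of equal differences, and Nptx1, Heyl and Dkk1 lie above it.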

How the data were processed

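Polyadenylated RNA was sequenced from 200 ng of total RNA per dish with a strand-specific kit, per the labels' protocols. The deposited values are whole-number counts for each gene, not normalized. The submitters' processing notes name bcl2fastq (2.17.1.14), cutadapt (1.14), HISAT2 (2.1.0), HTSeq (0.6.1) and the build mm10. Which annotation and strand setting the authors used to make the counts is not given in the sources used here. Overlapping genes may therefore share reads. Columns were matched to samples by their descriptions (0 columns unused, 0 pairs of identical libraries). Of 21886 genes, 3706 were 0 throughout.

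CPM used TMM scaling (edgeR 4.0.16 in R 4.3.3). The 11896 genes reaching 1 CPM in 5 or more of the 10 libraries were fitted with quasi-likelihood models. The level model had culture and 1 slope in minutes centred at 190, and the slope-difference model added their interaction. The early-against-later model had 4 groups with a slope per window, later minutes centred at 325, and 12124 genes. Standard errors derive from the F statistic. Gene positions come from GENCODE M21 (11889 tested genes matched). Tests of single shares were exact permutations over 252 splits, smallest p 0.00794.

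The comparison, and with it its members, and the gene lists were chosen with earlier results of these data known, although the rule for the members uses only experiment and time point. Named genes were the 12 highest and 12 lowest called level differences at 5 CPM or more with groups apart, up to 4 called members per list by p, Hes7, Lfng, Hes1, Hes5 and the luciferase row; the 8 steepest slopes each way; the 6 smallest p for slope differences; and the 8 largest changes each way between early and later. Predicted gene models were left out, and a few genes that the rule names are not reported here. Other list members in the text were chosen after their values were seen.

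The fits were tested on simulated data with known changes. Alternatives were other scalings, filters and time terms, DESeq2 1.42.0, limma-voom (limma 3.58.1), thinned counts, a GC correction, a replicate block and each library left out.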

Additional observations from a re-analysis of the deposited data

Results flagged for a closer look

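Among the named genes, 13 of 418 gene and group pairs had 1 dish far from the other 4, against about 20.9 that chance gives at 1 in 20. In Ex5 the dish at 165 min stood high for Mt1 (184.2 CPM), Dusp2 (20.2 CPM), Nxpe4 (8.58 CPM) and Per2 (7.73 CPM), a circadian clock gene. The Ex5 dish at 180 min stood apart for the ligand Efnb2 (15.1 CPM), and that at 195 min for the immediate early gene Egr3 (2.44 CPM) and for Ndufb6 (52.9 CPM). In Ex4 the dish at 155 min stood apart for Aldh1a2 (74.3 CPM), which makes retinoic acid, for Hoxa7 (31.7 CPM) and for the ribonucleotide reductase subunit Rrm2 (519.5 CPM). The Ex4 dish at 170 min stood apart for Bhlhe40 (4.69 CPM), Hhex (6.75 CPM) and Mdm2 (116.7 CPM).

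The difference between the cultures changed from the early to the later libraries, by edgeR's test of that change, for the following named genes. It was more positive early for Nptx1 (by 1.33 on the log2 scale), Dkk1 (1.201), Heyl (1.11), Shisa7 (1.00), Frem2 (0.94), Slc46a3 (0.93), Wnt6 (0.92), Slc7a1 (0.68) and Msgn1 (0.42). It was more negative early for Cntln (-0.74), Lpl (-0.72), Smim26 (-0.63), Slc39a10 (-0.60), Banp (-0.56), Oxld1 (-0.51), Pcmtd1 (-0.49) and the Wnt receptor Fzd5 (-0.48).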

How the results depend on the processing

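The count of level differences lay between 3926 with no time term and 5692 after a GC correction, and between 3879 and 4705 with each library left out. Common slopes numbered 1723 after a GC correction, 353 in Ex5 alone, 19 in Ex4 alone and 231 to 1933 with each library left out. Slope differences numbered 0 in the 10 libraries, 2 with no filter, 2 in DESeq2, 2 with all 32 libraries, 1 after a GC correction and 0 to 1 with each library left out. Changes from early to later numbered 841 with no time terms, 2486 after a GC correction and 2170 with time points 12 to 16 as the later window. They numbered 1175 to 2084 with each of the 10 early libraries left out, and no later library was left out. The replicate numbers are the time points, so same-numbered early dishes lie 10 min apart. Their correlations were -0.335 to 0.356, 4 of 5 pairs were over 0.1, and 2 Ex5 and 3 Ex4 dishes correlated best with their own number. Because such dishes are close in time, these correlations cannot show whether dishes were paired. With a replicate block, 4266 levels were called, Hes7 gave 0.15 and Lfng 0.22, which was called (adjusted p = 0.0397). With the block and a GC correction Hes7 gave 0.076 and Lfng 0.17 (called, adjusted p = 0.022), and with the block and thinned counts Hes7 gave 0.14 and Lfng 0.21 (called, adjusted p = 0.0472). With no time term Hes7 gave 0.17 and Lfng 0.30. With time counted from the Hes7 peak, Hes7 gave 0.46, Lfng 0.64, Hes1 0.015, Mvk 0.024 and Dusp4 0.14. With each library left out, the Lfng level was -0.20 to 0.036 and the Hes7 slope difference -0.17 to 0.33. For these reversals the cause was not tested.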

Other observations

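Several other gene groups differed between Ex5 and Ex4 in the early window, where 20.5% of all genes were higher and 19.4% lower. Of 21 matrix and integrin genes 10 were higher, 5 lower and 6 not called: the laminin Lamb1 (555 CPM in Ex5 and 421 CPM in Ex4, log2 0.40), fibronectin Fn1 (0.31) and the basement membrane collagens Col4a1 (0.26) and Col4a2 (0.33) were higher, and Sparc (-1.09), the integrin Itga6 (-0.66) and Col18a1 (-0.63) were lower. Of 20 genes of the cadherin switch 4 were higher and 7 lower. The keratins Krt18 (log2 -0.85) and Krt8 (-0.78), vimentin Vim (-0.58) and the epithelial splicing factor Esrp1 (-0.63) were lower, while Snai1, a repressor of epithelial genes, was higher (68.7 CPM in Ex5 and 47.6 CPM in Ex4, log2 0.47), as were P-cadherin Cdh3 (0.62) and Epcam (0.12).

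Among 11 BMP genes 4 were higher and 4 lower, with the targets Id3 (log2 -1.29), Msx1 (-1.10) and Id1 (-0.77) lower and the ligand Bmp2 (0.75) and the feedback inhibitors Smad6 (0.42) and Smad7 (0.53) higher. Of 8 TGF-β genes 3 were higher and 5 lower, with Tgfb1 at 28.7 CPM in Ex5 and 16.5 CPM in Ex4 (log2 0.84). Of 11 retinoic acid genes 7 were higher and 3 lower, led by the binding protein Crabp1 (137 CPM in Ex5 and 74.0 CPM in Ex4, log2 0.90). Of 14 circadian clock genes 5 were higher and 0 lower, Bhlhe40 (log2 0.99), Ciart (0.55) and Per2 (0.55) among them. Of 20 NRF2 genes 10 were higher, led by Srxn1 (log2 0.98), and 4 lower, a count of 2 without the Ex4 dish at 155 or 200 min, without the Ex5 dish at 165 or 180 min, or at matched minutes.

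Cell cycle genes moved little: 7 of 22 G1/S genes were lower and 1 higher (Rrm1, log2 -0.17, and Slbp, -0.15, among them), and 4 of 21 G2/M genes were lower and 1 higher, the lowest being Birc5 (-0.26). Of 76 ribosomal protein genes 22 were higher and 1 lower, with a median log2 difference of 0.07. Among 7 fibroblast markers 3 were higher, Col1a1 (4.51 CPM in Ex5 and 1.53 CPM in Ex4, log2 1.61), Acta2 (0.68) and Col1a2 (0.24), and Col3a1 was lower (-0.77).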
